A study of Homo sapiens with 8 samples.

Results

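The NRF2 antioxidant and glutathione genes are 39 of the 18564 genes in the expression table of LP-1 cells, and they were taken by gene symbol from a list of the regulator NFE2L2, its partners, and the enzymes of glutathione, thioredoxin, peroxide, heme, iron and pentose phosphate handling. LP-1 is an established human multiple myeloma (MM) cell line with the t(4;14) translocation. RNA-seq had been done on wild-type (WT) LP-1 cells and on bortezomib-resistant (BR) LP-1 cells, which the labels describe as kept with the proteasome inhibitor bortezomib (BTZ) for 2 months. Each line had received DMSO vehicle or, for 24 h, 25 nM of SI-2, which inhibits the transcriptional coactivator SRC-3. The vehicle libraries carry DMSO in their titles, while the treatment label of the WT ones reads untreated and that of the BR ones names only BTZ, so vehicle here rests on the titles. By the labels both lines grew in RPMI-1640 with 10% serum, and the methods of the study give a higher serum share for MM cells. Each of the 4 conditions had 2 libraries, 8 in all. The study describes the SI-2 and vehicle replicates of BR cells as biologically independent experiments, and no such statement was found for the WT libraries, for which the spread behind the p-values may be technical. Whether the BR cells are 1 clone and whether BTZ was present at harvest is not given in the sources used here. The comparisons ask whether antioxidant genes differ between resistant and parental cells, and whether SRC-3 inhibition moves them in either line.

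NRF2, the protein of NFE2L2, is a basic leucine zipper transcription factor that KEAP1 holds for ubiquitination and destruction by the proteasome. When cysteines of KEAP1 are modified by oxidants or electrophiles, NRF2 escapes, pairs with a small MAF protein and binds antioxidant response elements (AREs) near genes that make glutathione, reduce thioredoxin, supply NADPH and store iron. BACH1 competes for the same elements and holds HMOX1 down until heme releases it. Plasma cells form many disulfide bonds while they secrete antibody, a chemistry that yields peroxide, and proteasome inhibitors are known to raise NRF2 protein.

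The ARE core was searched in RefSeq promoters (GRCh38.p14, 250 bases before to 50 bases after each start site) as TGACNNNGC on both strands. Bases outside this window were not searched, so a gene without a match may hold the core elsewhere. Of the 39 genes, 29 had an entry, with 46 promoters in all, and 8 of these promoters (17.4%), from 7 genes, held the core, against 13.3% of all 35116 promoters and 13.9% of those of genes in the table. The genes were GCLM, GSTO1, GSTP1, KEAP1, MGST1, PGD and TXNRD1. The promoters of 4 of them are shown because they carry the core in a glutathione synthesis gene, a thioredoxin reductase gene with matches in 2 promoters, the gene of the NRF2 inhibitor itself, and a transferase gene with more than 1 count in only 1 library, with the matching letters in capitals, 5′ to 3′ on the strand of the gene.
GCLM, chr1:93909381-93909680, minus strand: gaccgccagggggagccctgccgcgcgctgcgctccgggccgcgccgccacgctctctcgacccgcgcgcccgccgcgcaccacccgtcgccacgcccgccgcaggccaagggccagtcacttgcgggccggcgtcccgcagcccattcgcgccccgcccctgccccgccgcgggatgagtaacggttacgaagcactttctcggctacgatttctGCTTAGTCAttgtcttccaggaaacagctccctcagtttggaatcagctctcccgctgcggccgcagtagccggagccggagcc
TXNRD1, chr12:104215529-104215828, plus strand: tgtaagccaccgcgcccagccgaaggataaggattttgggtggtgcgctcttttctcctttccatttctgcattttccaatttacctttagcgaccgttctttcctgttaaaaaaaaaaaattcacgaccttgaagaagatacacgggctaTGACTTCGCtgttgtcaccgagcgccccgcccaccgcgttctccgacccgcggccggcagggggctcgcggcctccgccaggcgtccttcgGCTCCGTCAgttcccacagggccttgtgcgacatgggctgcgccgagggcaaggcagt
KEAP1, chr19:10502722-10503021, minus strand: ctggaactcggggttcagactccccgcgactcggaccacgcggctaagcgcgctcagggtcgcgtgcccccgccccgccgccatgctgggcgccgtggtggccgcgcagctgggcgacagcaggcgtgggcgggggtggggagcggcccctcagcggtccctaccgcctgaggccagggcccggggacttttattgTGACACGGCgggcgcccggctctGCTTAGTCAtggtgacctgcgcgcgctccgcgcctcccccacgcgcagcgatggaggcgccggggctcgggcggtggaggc
GSTP1, chr11:67583562-67583861, plus strand: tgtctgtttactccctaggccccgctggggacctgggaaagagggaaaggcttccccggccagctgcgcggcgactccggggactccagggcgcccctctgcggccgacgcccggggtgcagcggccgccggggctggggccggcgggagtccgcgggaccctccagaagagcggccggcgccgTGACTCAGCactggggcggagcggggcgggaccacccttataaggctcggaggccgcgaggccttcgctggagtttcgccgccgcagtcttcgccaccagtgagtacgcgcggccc
The GCLM match lies on the opposite strand and begins 34 bases before the start site, and the GSTP1 match begins 66 bases before it. KEAP1 has 2 matches, beginning 54 and 31 bases before the start site, and the upstream TXNRD1 promoter has 2, beginning 99 and 8 bases before it. A match is a description of these letters, and the coordinates are those of the RefSeq build, whereas the submitters' processing notes name hg19.

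The libraries held 17997771 to 18570027 estimated counts, so depth differed little. Plasma cell markers were read at 14008 to 23129 counts for IRF4, 12060 to 19712 for XBP1 and 3719 to 7085 for TNFRSF17. PRDM1 and CD38 were at 3833 to 5150 and 3172 to 6156 counts. SDC1 and SLAMF7 were lower, at 301 to 688 and 15 to 28 counts. FGFR3 and NSD2, the genes of the t(4;14) translocation, were at 11611 to 25951 and 9330 to 15137 counts. Markers of B, T and erythroid cells summed to at most 10, 3 and 3 counts in any library, PAX5 and HBB were at 0 or 1, and the myeloid sum was 45 to 89 counts. NCOA3, which encodes SRC-3, differed by 0.049 ± 0.13 (log2, SE) between BR and WT cells (adjusted p = 0.884) and by 0.20 ± 0.12 between SI-2 and vehicle (adjusted p = 0.999), and NSD2 differed by 0.37 ± 0.10 between BR and WT cells (adjusted p = 0.150).

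The second BR SI-2 library stood apart. It held 1032 counts of COL1A1 and 155 of COL1A2, fibroblast collagens, against at most 6 and 4 in the other 7 libraries, and 26 counts of EPCAM and 60 of KRT18, epithelial genes, against at most 1 and 32. Of all genes in the table, 267 had counts in this library and in none of the others, and the same count for each of the others was 51 to 147. Several results that rest on this library are given with and without it, and the part of these foreign markers in them was not tested.

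The 39 genes spanned a wide range of levels per length. By median FPKM over the 8 libraries, 9 lay over 100, 23 between 10 and 100, 4 between 1 and 10, and 3 under 1. The ferritin chains led, with FTL, the light chain of the iron store, at a median of 1430.1 FPKM and FTH1, the heavy chain with the ferroxidase site, at 666. PRDX5, TKT, PRDX6, PRDX2, SOD1, GPX4 and PRDX3 followed at 117 to 176 FPKM, and 98.2% of all genes lay below PRDX5. NFE2L2 itself was at 73.5 FPKM, above KEAP1 at 39.1 and BACH1 at 12.2, and these ranges over the libraries did not overlap. GCLC, the catalytic subunit of the enzyme that starts glutathione synthesis, had a median of 13.2 FPKM, and GCLM, its modifier subunit, 5.83, without overlap between their ranges. Of the genes most often used to read NRF2 activity, NQO1 was at 18.0 FPKM, SRXN1 at 8.48 and HMOX1 at 5.37, and SRXN1 and HMOX1 overlapped in range. GPX7 was at 1.38 FPKM, and GSTP1, MGST1 and MGST2 were at 0 to 0.0700 FPKM in 7 libraries, so that these 3 did not pass the filter on low counts and 36 genes were tested.

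**Figure D1:**
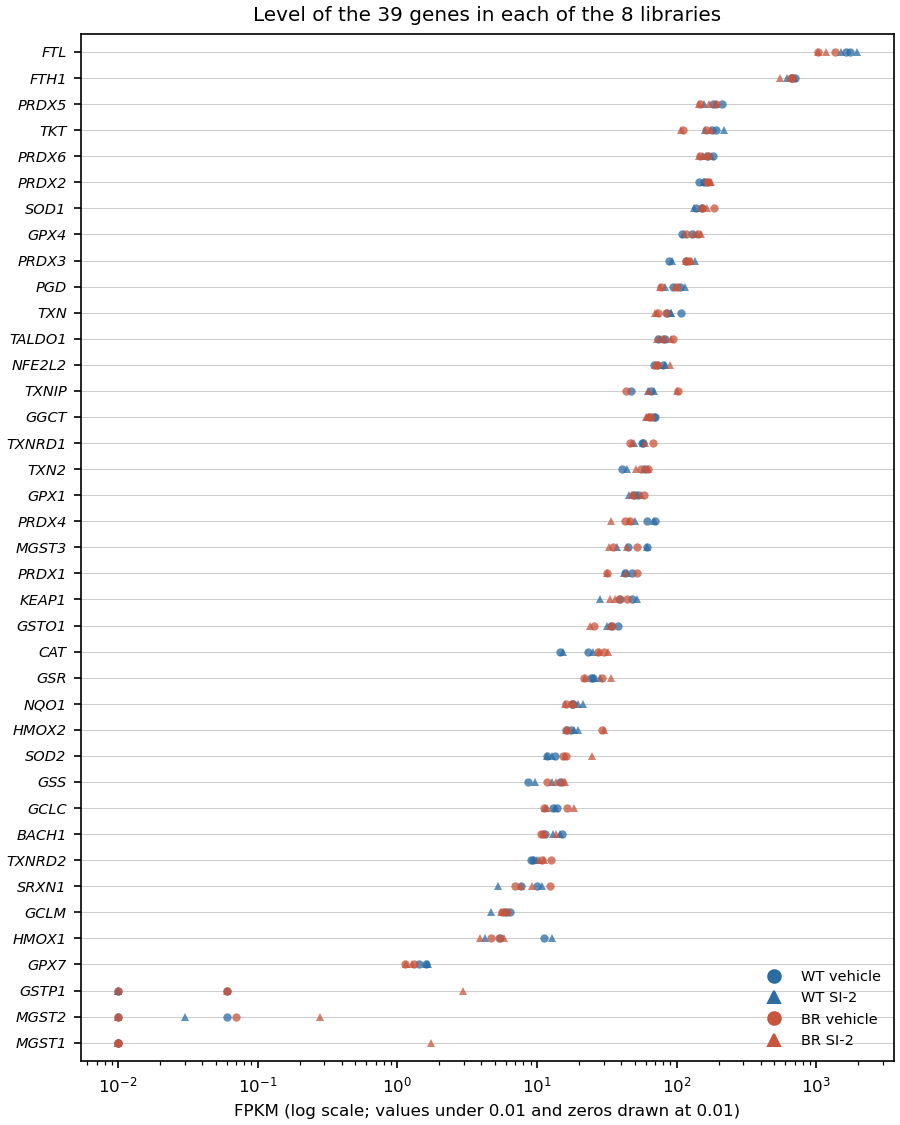
Each row is 1 of the 39 genes, ordered by its median, and each point is the FPKM of 1 library on a log axis, coloured by line (WT blue, BR red) and shaped by treatment (circle vehicle, triangle SI-2). FTL reached 1952 FPKM, and the single points of GSTP1 at 2.93 and MGST1 at 1.74 belong to the second BR SI-2 library.

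None of the 36 genes tested passed an adjusted p under 0.05 between BR and WT cells. FTL came nearest, 1.51-fold lower in BR cells, followed by PRDX4, an endoplasmic reticulum peroxiredoxin, 1.52-fold lower, and CAT, TXNRD2 and SOD2 had every BR library above every WT library. With the 4 BR libraries against the 4 WT libraries, edgeR called 49 of 13520 genes (0.362%), and 0 of the 36. This fit took the 4 libraries of a line as independent. Deviations of same-numbered SI-2 and vehicle libraries correlated at 0.373 in BR and 0.436 in WT cells. The p-values may thus be too small, and 4 libraries without overlap are not known to be 4 separate cultures. At an unadjusted p under 0.05 edgeR had 9 of the 36, 3 higher and 6 lower in BR cells, against 14.4% of all genes. Without the second BR SI-2 library it had 6 of the 36, 2 higher and 4 lower, against 1365 of 13520 genes. The median log2 fold change of the 36 was -0.033, against 0.004 over all genes tested, and their median size was 0.18 against 0.15. DESeq2 called FTL and PRDX4 (adjusted p = 0.00399 and 0.00528) among 399 genes. The BR and WT libraries did not overlap for 3 of the 36 with BR higher (TXNRD2, SOD2 and CAT; 3.75% of all genes) and for 4 with BR lower (TXN, PRDX4, GPX7 and FTL; 4.37% of all genes). With the vehicle libraries alone, edgeR called 0 of 13896 genes (0%) and had 3.89% of them at an unadjusted p under 0.05, which held for 2 of the 36, FTL and PRDX4. As RNA came from whole cultures, fewer cells that express a gene and less of its RNA per cell cannot be told apart.

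**Figure D2:**
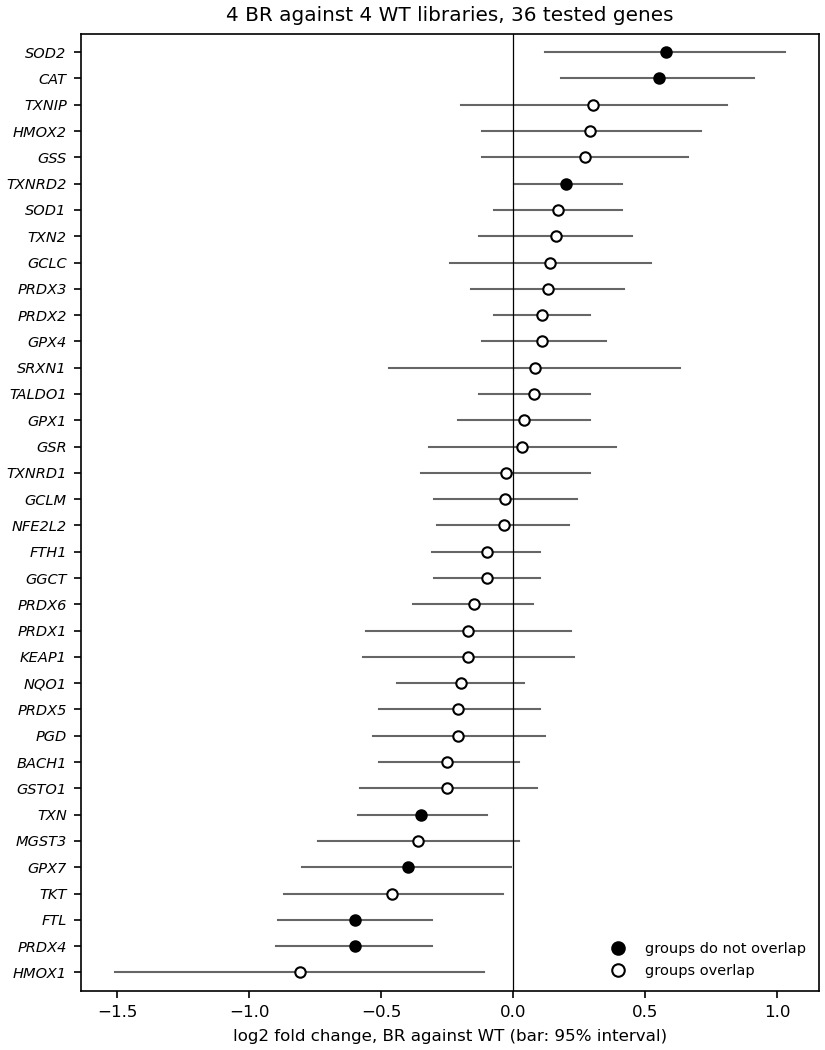
Each row is 1 of the 36 genes tested, the point is its log2 fold change of 4 BR against 4 WT libraries, the bar its 95% interval, and filled points mark genes whose groups do not overlap. HMOX1 lies lowest at -0.81 and SOD2 highest at 0.58, and 27 of the intervals include 0.

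None of the 3 regulators had an unadjusted p under 0.05 between the lines. NFE2L2 was at 68.5 and 80.5 FPKM in the WT vehicle libraries, 74.2 and 83.0 in the WT SI-2 libraries, 72.0 and 72.7 in the BR vehicle libraries and 89.1 and 70.5 in the BR SI-2 libraries, replicate 1 first here and below. The groups overlapped, the BR SI-2 replicate 1 was the highest, and the difference of BR from WT was -0.036 on the log2 scale with a 95% interval from -0.29 to 0.21. KEAP1 was at 39.5 and 48.0 FPKM in the WT vehicle libraries, 28.4 and 52.2 in the WT SI-2 libraries, 44.3 and 38.7 in the BR vehicle libraries and 33.4 and 36.2 in the BR SI-2 libraries, with an interval from -0.57 to 0.23 around -0.17 on the log2 scale. BACH1 was at 11.5 and 15.1 FPKM in the WT vehicle libraries, 13.0 and 14.6 in the WT SI-2 libraries, 10.7 and 11.1 in the BR vehicle libraries and 13.6 and 11.2 in the BR SI-2 libraries. The 2 vehicle and the second SI-2 libraries of BR cells lay below every WT library, the first BR SI-2 library did not, and the difference was -0.25 ± 0.12 (SE, adjusted p = 0.382).

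Glutathione is made by the GCLC and GCLM subunits together and then by GSS, is returned from its oxidised form by GSR, and GGCT acts in its breakdown. GCLC was at 13.8 and 13.0 FPKM in the WT vehicle libraries, 11.5 and 13.4 in the WT SI-2 libraries, 16.3 and 11.3 in the BR vehicle libraries and 18.3 and 11.7 in the BR SI-2 libraries. The first BR replicates of both treatments were above every WT library and the second BR replicates were among the lowest 3 of the 8 libraries, and the difference between the lines was 0.14 with an interval from -0.24 to 0.52. GCLM was at 6.45 and 5.94 FPKM in the WT vehicle libraries, 4.66 and 5.86 in the WT SI-2 libraries, 6.10 and 5.59 in the BR vehicle libraries and 5.52 and 5.80 in the BR SI-2 libraries. The groups overlapped, the lowest value was the first WT SI-2 library, and the interval ran from -0.30 to 0.24 on the log2 scale around -0.030. GSS, GSR and GGCT differed by 0.27, 0.032 and -0.10, and none of the 5 genes had an unadjusted p under 0.05.

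Among the quinone and heme enzymes, HMOX1 had the largest difference of all 36. HMOX1 was at 5.42 and 11.3 FPKM in the WT vehicle libraries, 4.27 and 12.7 in the WT SI-2 libraries, 4.69 and 5.31 in the BR vehicle libraries and 3.92 and 5.81 in the BR SI-2 libraries. HMOX1 breaks heme down and is held by BACH1, and the second WT replicates stood above the other 6 libraries in both treatments, while the first WT replicates lay within the BR range. BR minus WT was -0.81 ± 0.32 on the log2 scale (SE, n = 4 and 4, adjusted p = 0.287). Without the second WT SI-2 library it was -0.54, and in the vehicle libraries alone it was -0.77 ± 0.49, or -0.15 without the second WT vehicle library. HMOX2, the constitutive heme oxygenase, was at 16.1 to 19.5 FPKM in the WT libraries and in the first BR replicates, and at 29.2 and 30.3 in the second BR replicates (log2 fold change 0.29 ± 0.19, adjusted p = 0.501, and 0.15 ± 0.18 without the second BR SI-2 library). NQO1 was at 18.2 and 17.7 FPKM in the WT vehicle libraries, 21.5 and 19.8 in the WT SI-2 libraries, 17.9 and 16.1 in the BR vehicle libraries and 18.5 and 15.8 in the BR SI-2 libraries. NQO1 reduces quinones, and its difference between the lines was -0.20 ± 0.11 (adjusted p = 0.430), with overlapping groups.

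In the thioredoxin system, TXN carries reducing power to peroxiredoxins, TXNRD1 in the cytosol and TXNRD2 in mitochondria recharge the thioredoxins, SRXN1 repairs overoxidised peroxiredoxins, and TXNIP binds and inhibits thioredoxin. TXN was at 85.6 and 108 FPKM in the WT vehicle libraries, 91.4 and 90.8 in the WT SI-2 libraries, 84.5 and 73.2 in the BR vehicle libraries and 70.4 and 72.8 in the BR SI-2 libraries. Every BR library lay below every WT library, with 84.5 FPKM as the highest BR and 85.6 as the lowest WT value. The log2 fold change was -0.35 ± 0.11 (adjusted p = 0.214). In vehicle and SI-2 libraries it was -0.011 and -0.34 between first replicates, and -0.61 and -0.42 between second replicates. TXNRD2 was at 9.13 and 9.42 FPKM in the WT vehicle libraries, 10.0 and 9.58 in the WT SI-2 libraries, 10.8 and 12.5 in the BR vehicle libraries and 10.4 and 11.3 in the BR SI-2 libraries. TXNRD2 was thus higher in each BR library, by 0.20 ± 0.091 on the log2 scale (adjusted p = 0.342). Without the second BR SI-2 library the difference was 0.22 ± 0.11 (adjusted p = 0.522). TXNRD1 was at 56.4 and 57.6 FPKM in the WT vehicle libraries, 49.4 and 57.8 in the WT SI-2 libraries, 67.3 and 46.1 in the BR vehicle libraries and 59.4 and 48.2 in the BR SI-2 libraries. The BR libraries lay on both sides of the WT libraries, and the difference was -0.029 with an interval from -0.35 to 0.29. SRXN1 was at 7.74 and 9.99 FPKM in the WT vehicle libraries, 5.25 and 10.8 in the WT SI-2 libraries, 12.4 and 6.93 in the BR vehicle libraries and 9.22 and 7.72 in the BR SI-2 libraries. The highest and the next lowest SRXN1 values were thus both in BR vehicle libraries, and the interval ran from -0.47 to 0.63. TXNIP was at 47.5 and 66.0 FPKM in the WT vehicle libraries, 62.6 and 68.5 in the WT SI-2 libraries, 43.4 and 103 in the BR vehicle libraries and 63.4 and 101 in the BR SI-2 libraries. The second BR replicates were above all other libraries, the first BR vehicle library was the lowest, and TXNIP differed by 0.30 ± 0.23 (adjusted p = 0.569), or by 0.18 ± 0.23 without the second BR SI-2 library. Mitochondrial TXN2 differed by 0.16 ± 0.13.

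The peroxiredoxins are thiol peroxidases of different compartments. PRDX4 was at 61.0 and 70.3 FPKM in the WT vehicle libraries, 50.1 and 68.4 in the WT SI-2 libraries, 42.6 and 46.4 in the BR vehicle libraries and 33.9 and 45.5 in the BR SI-2 libraries. Every BR library lay below every WT library in this gene of the secretory pathway, with means of 42.1 ± 5.72 and 62.4 ± 9.19 FPKM (SD, n = 4 and 4), and the log2 fold change was -0.60 ± 0.13 (adjusted p = 0.0963). In the vehicle libraries alone it was -0.59 ± 0.20, and without the second BR SI-2 library -0.62 ± 0.15 (adjusted p = 0.221). Without the first WT SI-2 library, the lowest of the WT values, PRDX4 passed the test in edgeR (-0.70, adjusted p = 0.0270). Leaving out the WT value nearest the BR values widens the gap by itself. PRDX4 passed with no other library left out. The other 5 peroxiredoxins did not have an unadjusted p under 0.05, and their log2 fold changes ran from -0.21 for PRDX5 to 0.13 for PRDX3.

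Of the glutathione peroxidases, GPX7, which acts in the endoplasmic reticulum, was the lowest. GPX7 was at 1.60 and 1.44 FPKM in the WT vehicle libraries, 1.60 and 1.67 in the WT SI-2 libraries, 1.31 and 1.13 in the BR vehicle libraries and 1.16 and 1.27 in the BR SI-2 libraries. Each BR library lay below each WT library at this low level, and the log2 fold change was -0.40 ± 0.18 (adjusted p = 0.339). Without the second BR SI-2 library it was -0.40 ± 0.21 (adjusted p = 0.539). GPX4, which reduces lipid peroxides in membranes, differed by 0.11 ± 0.11, and the cytosolic GPX1 by 0.041 ± 0.11. The transferases GSTO1 and MGST3 were 24.1 to 37.9 and 32.9 to 61.6 FPKM over the libraries and differed by -0.25 ± 0.15 and -0.36 ± 0.17 (adjusted p = 0.484 and 0.372), and GSTO1 by -0.14 ± 0.15 without the second BR SI-2 library.

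The 3 superoxide and catalase genes had positive log2 fold changes between the lines, and none of them passed the test. CAT was at 23.1 and 14.7 FPKM in the WT vehicle libraries, 25.3 and 15.4 in the WT SI-2 libraries, 27.2 and 30.4 in the BR vehicle libraries and 27.8 and 32.0 in the BR SI-2 libraries. CAT, the peroxisomal catalase, was higher in each BR library than in each WT library, the second WT replicates were lowest, and the means were 29.3 ± 2.25 and 19.7 ± 5.38 FPKM (SD, n = 4 and 4). The log2 fold change was 0.55 ± 0.17 (adjusted p = 0.204). In vehicle and SI-2 libraries it was 0.24 and 0.17 between first replicates, and 0.98 and 0.94 between second replicates. SOD2 was at 13.4 and 11.7 FPKM in the WT vehicle libraries, 12.7 and 11.8 in the WT SI-2 libraries, 16.1 and 15.4 in the BR vehicle libraries and 15.9 and 24.9 in the BR SI-2 libraries. SOD2, the mitochondrial superoxide dismutase, had its highest value in the library with the foreign collagen counts, and the groups did not overlap with or without it. BR minus WT was 0.58 ± 0.21 on the log2 scale (adjusted p = 0.252), and 0.27 ± 0.10 without that library (adjusted p = 0.427). SOD1, the cytosolic enzyme, differed by 0.17 ± 0.11.

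The pentose phosphate enzymes PGD, TALDO1 and TKT serve the pathway that supplies NADPH. TKT was at 159 to 219 FPKM in the WT libraries, at 161 and 175 in the first BR replicates and at 110.4 and 107 in the second BR replicates. The BR libraries were thus split by replicate and the first replicates lay within the WT range, and the log2 fold change was -0.46 ± 0.19 (adjusted p = 0.315), or -0.33 ± 0.18 without the second BR SI-2 library. PGD differed by -0.21 ± 0.15 and TALDO1 by 0.080 ± 0.095.

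Of the 2 ferritin chains, FTL was at 1626 and 1742 FPKM in the WT vehicle libraries, 1509 and 1952 in the WT SI-2 libraries, 1351 and 1033 in the BR vehicle libraries and 1172 and 1029 in the BR SI-2 libraries. The 4 BR libraries lay below the 4 WT libraries, with means of 1146 ± 152 and 1707 ± 189 FPKM (SD, n = 4 and 4), a log2 fold change of -0.60 ± 0.13 and an adjusted p of 0.0895. BR minus WT in vehicle and SI-2 libraries was -0.26 and -0.33 between first replicates, and -0.82 and -1.03 between second replicates. In the vehicle libraries alone the difference was -0.52 ± 0.20, with -0.77 without the first and -0.30 without the second BR vehicle library. Over both treatments without the second BR SI-2 library it was -0.53 ± 0.13 (adjusted p = 0.239). Without the first BR vehicle library, the highest of the BR values, FTL passed the test in edgeR (-0.71, adjusted p = 0.0274). Leaving out the BR value nearest the WT values widens the gap by itself. FTL passed with no other library left out. FTH1 was at 552 to 699 FPKM and differed by -0.10 ± 0.092, and the difference between the 2 chains was not tested.

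**Figure D3:**
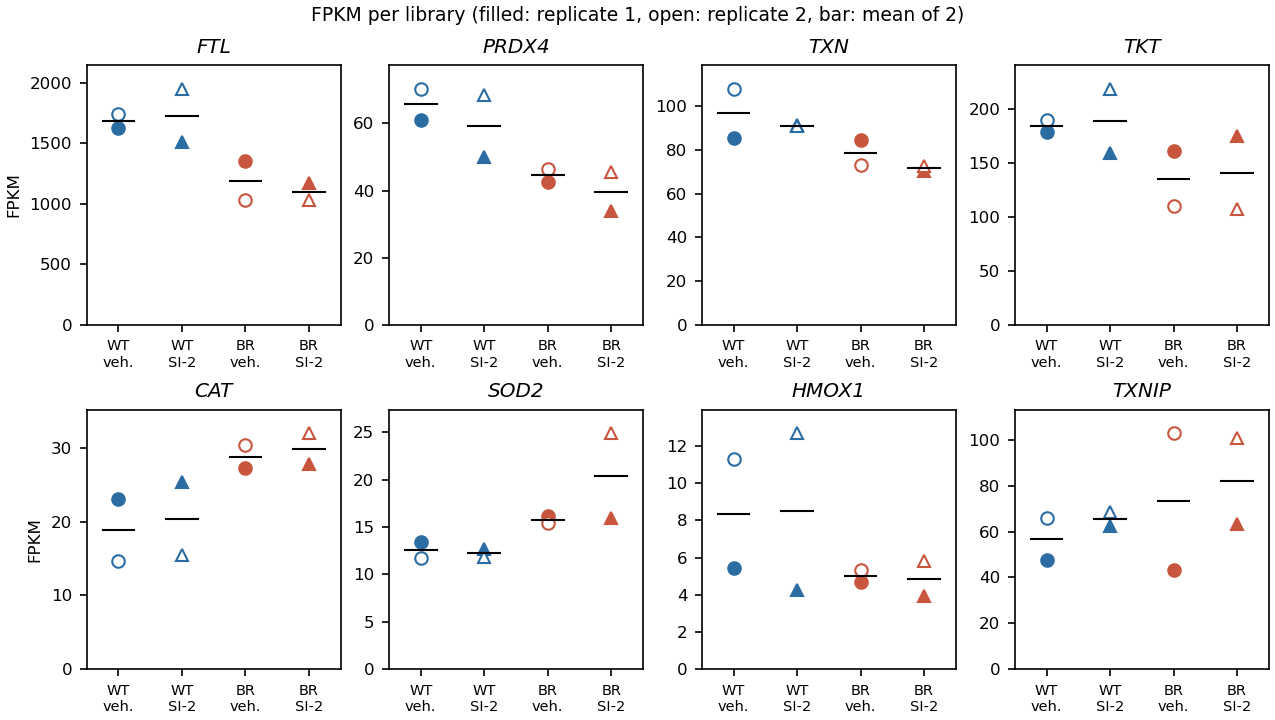
FPKM of 8 of the genes in each library, by condition, with the axis from 0, filled points for replicate 1, open points for replicate 2, and a bar at the mean of the 2. FTL and PRDX4 are lower in each BR library, CAT is higher in each BR library, and the second replicates of WT HMOX1 (11.3 and 12.7 FPKM) and of BR TXNIP (103 and 101 FPKM) stand apart from the first.

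The replicate number separated the libraries of a line about as much as the line did. Over the 36 genes, the median absolute log2 difference was 0.22 between replicates 1 and 2 of a condition, 0.26 between BR and WT libraries of the same treatment and number, and 0.10 between SI-2 and vehicle libraries of the same line and number, against 0.23, 0.20 and 0.13 over all genes tested. The replicate difference was the largest of the 3 in 23 of the 36 genes (51.7% of all genes), the line difference in 11 (31.5%) and the SI-2 difference in 2 (16.8%). In BR cells, 22 of the 36 were lower in replicate 2 than in replicate 1 in both treatments, against 35.2% of all genes, and 9 were higher, against 32.2%. In WT cells, 18 were higher in replicate 2 in both treatments, against 34.3% of all genes, and 10 were lower, against 33.8%. Of these, 11 genes were both lower in BR and higher in WT replicate 2, namely NFE2L2, BACH1, GGCT, TXN, TXNRD1, SRXN1, PRDX5, PRDX6, PGD, TKT and FTL, against 11.3% of all genes. For SRXN1 the BR minus WT difference was thus 0.68 and 0.82 on the log2 scale between first replicates and -0.58 and -0.58 between second replicates. The same turn was seen in PGD, at 0.083 and 0.27 against -0.52 and -0.70. CAT, HMOX2, TXN2 and TALDO1 went the other way, higher in BR and lower in WT replicate 2, against 10.3% of all genes. HMOX1, TXNIP, PRDX4, GPX4 and MGST3, 5 genes, were higher in replicate 2 of both lines, and GSS, NQO1, PRDX3 and SOD1, 4 genes, were lower, each against 12.6% of all genes. The numbers are not known to mark the same culture or day in the 2 lines.

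**Figure D4:**
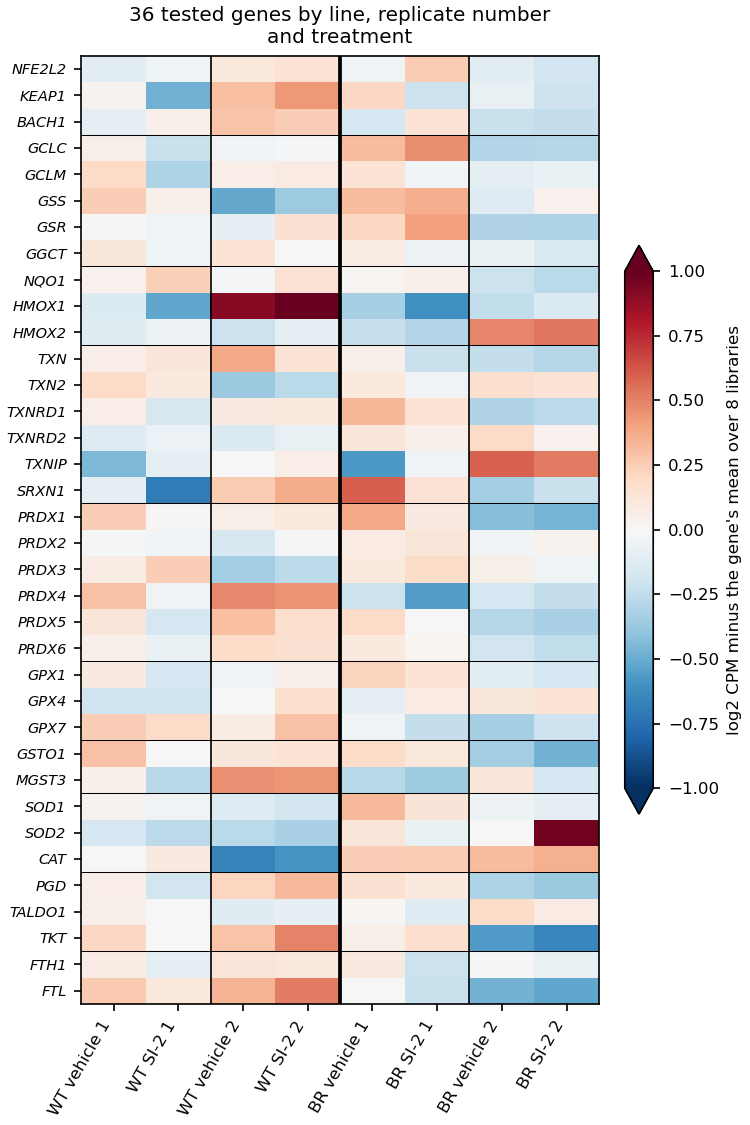
Log2 CPM of the 36 tested genes, each minus its own mean over the 8 libraries, with libraries in columns ordered by line, replicate number and treatment and with lines between the groups of genes. The second BR replicates are blue and the second WT replicates red for many genes, and SOD2 is red in the last column.

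None of the 36 genes passed the test between SI-2 and vehicle. Their log2 fold changes over both lines ran from -0.20 for KEAP1 to 0.26 for SOD2, which was -0.14 without the second BR SI-2 library, with a median of -0.043 against 0.000 over all genes. edgeR called 0 of 13520 genes (0%), and the share of genes at an unadjusted p under 0.05 was 2.22%, which held for 0 of the 36. This fit left out line and number, so their differences entered its spread and its p-values may be too large. DESeq2 likewise called 0 genes. With SI-2 and vehicle libraries paired by line and number, again 0 genes were called, 13.9% had an unadjusted p under 0.05, and so did 4 of the 36. These were PRDX5 (-0.17 ± 0.063), PRDX4 (-0.19 ± 0.078), TXNIP (0.22 ± 0.094) and KEAP1 (-0.23 ± 0.10), with adjusted p-values of 0.340, 0.348, 0.355 and 0.355 (log2, SE, 4 pairs).

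In the pairs, 7 of the 36 were lower with SI-2 in 4 of 4, namely GGCT, PRDX4, PRDX5, PRDX6, MGST3, SOD1 and FTH1, against 12.0% of all genes. Of the 36, CAT was higher in 4 of 4, by 0.014 to 0.087 on the log2 scale, against 9.82% of all genes. PRDX4 differed by -0.32 and -0.035 in the WT pairs and by -0.34 and -0.062 in the BR pairs, so that the first replicates carried most of it. GGCT was the most even, at -0.16 and -0.13 in the WT and -0.13 and -0.084 in the BR pairs. No gene of the 36 had its 4 SI-2 libraries clear of its 4 vehicle libraries, against 0.666% of all genes higher and 0.777% lower.

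The first replicates of both lines showed larger SI-2 differences than the second in several genes. SRXN1 differed by -0.58 and -0.44 in the first WT and BR pairs and by 0.12 in both second pairs. KEAP1 differed by -0.51 and -0.43 in the first pairs, and by 0.13 and -0.13 in the second. TXNIP differed by 0.35 and 0.53 in the first pairs, and by 0.063 and -0.073 in the second. This split by number was noticed in the data and has no test.

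Within each line, SI-2 against vehicle gave 0 calls of 13896 genes (0%) in BR and in WT cells, with 1.20% and 0.533% of genes at an unadjusted p under 0.05 and 0 of the 36 in each. With libraries paired by line and number, 492 and 453 of 13896 genes had an unadjusted p under 0.05, again with 0 of the 36 in each. The values that follow are of the unpaired fit. SOD2 had the largest difference in BR cells, 0.48 ± 0.28 with an interval from -0.16 to 1.12, and it was -0.13 ± 0.19 without the second BR SI-2 library. Other genes also moved without that library. In BR cells GCLC went from 0.10 to 0.42, GSR from 0.12 to 0.44, NFE2L2 from 0.12 to 0.33 and HMOX2 from -0.000 to -0.47. The later values rest on the first BR SI-2 library. In WT cells GCLM was largest, at -0.23 ± 0.18 with an interval from -0.65 to 0.18. It was -0.053 without the first WT SI-2 library and -0.45 without the second, and NQO1 differed by 0.18 ± 0.17. The test of whether the SI-2 difference itself differed between BR and WT cells called 0 of 13896 genes (0%), with 0.533% at an unadjusted p under 0.05 and 0 of the 36. SOD2 was again the largest, at 0.56 ± 0.40, and it was -0.051 ± 0.25 without the second BR SI-2 library. Without that library GCLC went from 0.22 to 0.55 and HMOX2 from -0.10 to -0.56.

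**Figure D5:**
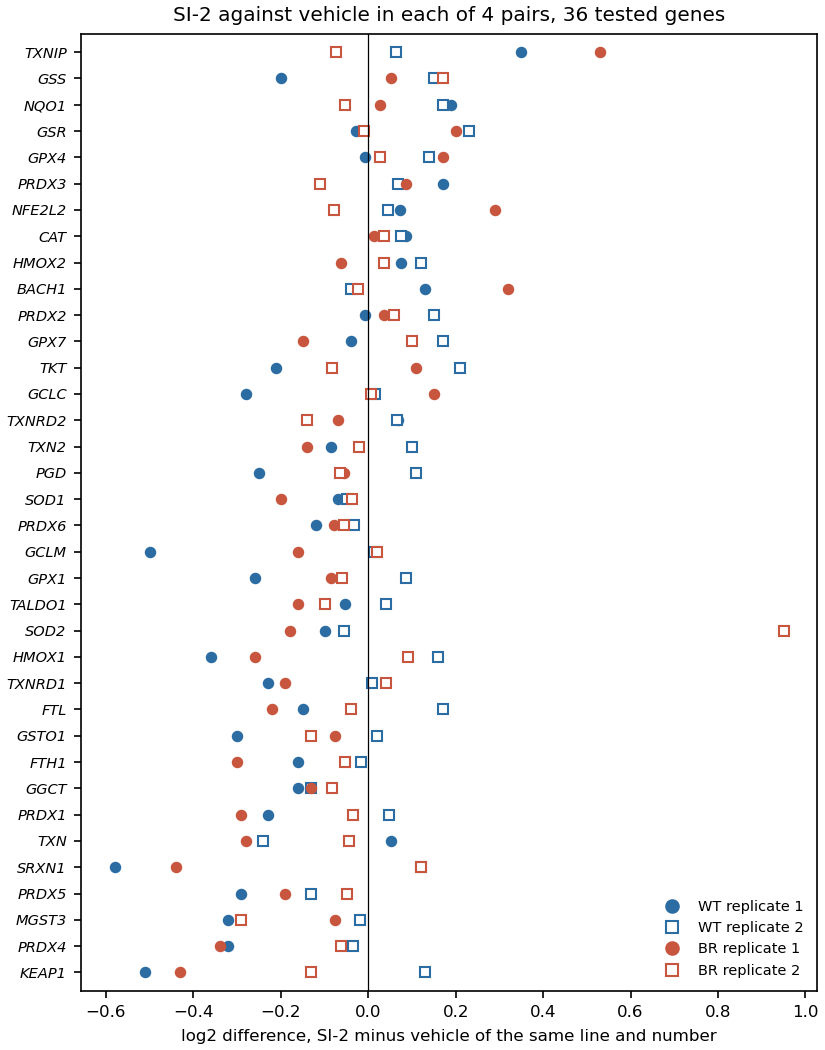
Each row is 1 of the 36 genes, and the 4 points are the log2 differences of SI-2 minus vehicle in the 4 pairs of the same line and replicate number (WT blue, BR red, filled circles replicate 1, open squares replicate 2). The farthest point is SOD2 in the second BR pair at 0.95, and the first pairs of SRXN1 and KEAP1 lie from -0.58 to -0.43.

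The 3 genes below the filter had their highest counts in the second BR SI-2 library. GSTP1, a cytosolic glutathione transferase, had 50 counts there and 0 or 1 in the other 7. MGST1, a microsomal transferase, had 29 counts there and 0 in the other 7. MGST2 had 4 counts there and 0 to 2 in the other 7. Fitted without the filter, GSTP1, MGST1 and MGST2 had adjusted p-values of 0.292, 0.386 and 0.783 between BR and WT cells in edgeR. As GSTP1 and MGST1 had more than 1 count only in the second BR SI-2 library, the fit cannot separate a line difference from that library. Among 92 other genes of the pathway found in the table, AKR1C1, AKR1C3 and ME1 also had counts in the second BR SI-2 library and in none of the other 7. In the same library COL1A1 stood at 1032 counts, and how much of GSTP1, MGST1 or SOD2 came with the collagen and epithelial counts was not tested.

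Reads were also estimated per RefSeq transcript, and 29 of the 39 genes had counts on more than 1 transcript. For 27 genes with at least 20 counts in every library, the share of the main transcript was compared between the lines. The lines overlapped for 26 of them and not for KEAP1. Its main transcript, NM_203500.1, held 83.2, 83.8, 91.7 and 88.6% of KEAP1 counts in the WT libraries and 80.7, 71.5, 80.8 and 78.0% in the BR libraries, and the groups did not overlap. The same held, with the main transcript lower in BR cells, for 1.45% of 9908 genes, and with it higher for 1.60% and for none of the 27. The shares are estimates that divide reads among transcripts. TXNRD1 had its main transcript, NM_182729.2, at 43.2 to 72.4%, with overlapping groups.

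Of 92 further genes of glutathione, NRF2 and redox handling in the table, 78 were tested between BR and WT cells with 0 called and 17 at an unadjusted p under 0.05, which held for 14.4% of all genes. Of the 17, 13 were lower in BR cells, and 1092 of all 1942 such genes were. The nearest to the threshold were NQO2, a quinone reductase, and FECH, which inserts iron into heme. NQO2 was at 12.6 to 17.9 FPKM in the WT and 6.55 to 10.2 in the BR libraries, with a log2 fold change of -0.82 ± 0.17 (adjusted p = 0.0843). FECH was at 27.6 to 35.6 FPKM in the WT and 23.1 to 25.2 in the BR libraries (-0.42 ± 0.10, adjusted p = 0.122). The BR libraries lay below the WT libraries in both genes. By group, the unadjusted count was 2 of 13 for NRF2 partners, 4 of 21 for other NRF2 targets, 7 of 25 for other glutathione genes, 4 of 15 for other redox genes and 0 of 4 for other pentose phosphate genes, all to be read against the same 14.4%. None of the 78 passed the test between SI-2 and vehicle.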

How the data were processed

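RNA was extracted from LP-1 cultures and sequenced on a BGISEQ platform. Per the labels, the submitters' processing notes name BWA, Bowtie2, RSEM and the build hg19, with no role, order or version given in the sources used here. The authors deposited expected counts (estimated reads per gene and per transcript, with decimals where a read was divided) and FPKM values (scaled for length and depth) for each library. Reads that RSEM-type estimation divides between near-identical copies, such as ferritin pseudogenes, can move the levels of FTH1 and FTL, and strand use in counting is not given in the sources used here. The authors' mean columns and their own comparisons, which hold fold changes, p-values and q-values of SI-2 against vehicle, were not used.

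Expected counts were rounded and tested with edgeR 4.0.16 (quasi-likelihood, TMM scaling with factors of 0.971 to 1.06, filterByExpr), with Benjamini-Hochberg adjustment over all genes tested and a threshold of 0.05, in R 4.3.3. BR against WT and SI-2 against vehicle over all 8 libraries were fitted as 2 groups of 4, and the other comparisons in 1 fit of the 4 conditions. Intervals are 95%. Pair and replicate differences are of log2 CPM with 0.5 added. Alternatives were DESeq2 1.42.0, and limma 3.58.1 on log2(FPKM + 1) and log2(FPKM + 0.1). Other scalings and filters, a replicate block and fits without each library in turn were further alternatives. The fits were tested on simulated data. For BR against WT the simulated libraries were independent, so deviations shared by same-numbered libraries of a line were not covered.

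Replicate numbers were checked by correlating the deviations of libraries from their condition means over 13896 genes. Same-numbered SI-2 and vehicle libraries correlated at 0.373 in BR and 0.436 in WT cells and were also treated as pairs, in a block of line and number chosen after seeing the data. Between the lines, r was -0.121 for BR vehicle with WT SI-2 libraries and 0.103 to 0.196 for the other pairs of conditions. Whether same-numbered libraries of the 2 lines share a batch was not tested. The labels do not say what a number marks.

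All 39 genes are reported by role. Values in every library are given for the regulators, for genes whose groups do not overlap, for the gene with the largest difference in each comparison, and for GCLC, GCLM, NQO1, HMOX1, TXNRD1, SRXN1 and TXNIP. Of other pathway genes, those that passed the test or, with none, the 2 with the smallest p are given. The genes and lists were chosen with earlier results of these data known. Promoters came from RefSeq (GRCh38.p14).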

Additional observations from a re-analysis of the deposited data

Results flagged for a closer look

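Of 154 groups of 4 libraries examined, 15 held a value far from the other 3 by Dixon's criterion. For normally spread values chance meets it in about 1 group in 20. That rate does not hold for GSTP1, MGST1 and MGST2, which are among the 15 and lie near 0 counts in most libraries. Each library is in a line group and a treatment group, so 1 value can be marked in both. Of the 15, 8 were in the second BR SI-2 library, the one with collagen and epithelial counts. In that library SOD2 was at 24.9 FPKM, against 16.1 in the next BR library. GSTP1 was at 2.93 FPKM and MGST1 at 1.74, each standing apart both among the BR and among the SI-2 libraries, with 0.0600 and 0 as the next values. MGST2 was at 0.280 FPKM against 0.0300 in the next SI-2 library. TXNIP, at 101 FPKM, and PRDX1, at 31.7, also stood apart among the SI-2 libraries, and the second BR vehicle library held similar values of 103 and 31.6.

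The first BR SI-2 library was highest of the BR libraries for NFE2L2 (89.1 FPKM, next 72.7) and BACH1 (13.6, next 11.2) and lowest for FTH1 (552, next 655). Among the WT libraries, TXNRD1 was lowest in the first SI-2 library at 49.4 FPKM, and GSTP1 was highest in the first vehicle library at 0.0600 FPKM, which is 1 count. Among the vehicle libraries, HMOX1 was highest in the second WT library at 11.3 FPKM (next 5.42) and HMOX2 in the second BR library at 29.2 (next 17.6). The cause of these values was not tested.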

How the results depend on the processing

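Of 315 values that summarise a comparison under an alternative, 32 moved and 283 did not. Single genes were followed only for a few named genes in each comparison, mostly those with large differences. Of these 365 values, 5 changed sign, all when a library was left out, and 5 passed the test that they had missed. Genes outside this selection also changed sign. For SI-2 over both lines, HMOX2 went from 0.044 to -0.16 and FTL from -0.043 to 0.10 without the second BR SI-2 library. For BR against WT over both treatments, edgeR called 49 genes, the fit of 4 conditions 18, the replicate block 155, DESeq2 399, and fits without 1 library 21 to 129. Among the 36 genes the replicate block called 1 (PRDX4, adjusted p = 0.0388), DESeq2 2, and fits without 1 library 0 to 1. In the vehicle libraries, where edgeR called 0, upper-quartile scaling, a CPM of at least 1, the replicate block, limma on log2(FPKM + 1) and a fit of only the libraries compared each called 1, no filter 3, limma on log2(FPKM + 0.1) 4 and DESeq2 28, and the median of the 36 was -0.22 to 0.006 without 1 library. For SI-2 in BR cells, the line and number block and DESeq2 each called 1 gene, fits without 1 library 0 to 7, and the median was -0.18 to 0.085. DESeq2 called 1 gene for SI-2 in WT cells and 1 for the interaction, whose median was -0.13 to 0.11. Without the second BR SI-2 library, SOD2 turned to -0.14 for SI-2 over both lines, -0.13 in BR cells and -0.051 in the interaction, and over all fits without 1 library the highest were 0.39, 0.90 and 0.98. TXNIP for SI-2 in BR cells, 0.14 on the log2 scale, turned to -0.33 without the first BR vehicle library and to -0.17 without the second BR SI-2 library, and reached 0.84 without the second BR vehicle library. The cause was not tested. The replicate block changed no other call among the 36.

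Adjusted p over all alternatives ran from 0.00399 to 0.300 for FTL and from 0.00528 to 0.335 for PRDX4. GSTP1, MGST1 and MGST2 were left out by the filter on low counts.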
